A study of Mus musculus with 6 samples.

Results

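The unfolded protein response and ER folding genes are 33 genes of the chaperones, stress sensors, degradation machinery and stress targets of the endoplasmic reticulum (ER), chosen by symbol in a matrix of estimated counts for 55401 genes. All 33 symbols were found. Ddit3 also had a second row that held at most 0.0165 CPM (counts per M counts of the library, scaled by TMM), which was not used. Of the 33 genes, 32 were among the 15959 genes with enough counts to be tested. Derl3 was not. They fall into 15 chaperones and folding enzymes, 1 translocation gene, 4 sensors and their factors, 6 genes of ER degradation and 7 genes of the ATF4 arm.

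The cells were bone marrow-derived macrophages of C57BL/6 mice, primary macrophages grown in culture from marrow. In 3 libraries (siNC) the cells carried a negative control siRNA, and in 3 (siPiezo1) an siRNA against Piezo1, a cation channel of the plasma membrane that opens when the membrane is stretched. The cells of all 6 libraries were mechanically stretched for 4 h, so the values are levels in stretched cells. The labels do not say whether replicates came from separate cultures or mice, and p-values then measure the spread between these libraries, which may be technical.

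Proteins that enter the ER are folded by chaperones of the Hsp70 and Hsp90 families, by the lectins calnexin and calreticulin and by protein disulphide isomerases. When unfolded proteins build up, IRE1 (Ern1) splices the mRNA of Xbp1, ATF6 is cut to release a transcription factor, and PERK (Eif2ak3) phosphorylates eIF2alpha, which slows translation while the mRNA of Atf4 is translated more. XBP1 and ATF6 then raise chaperone and ER degradation genes, and ATF4 raises Ddit3 and genes of amino acid supply. In macrophages the IRE1 and XBP1 branch is also known to act downstream of Toll-like receptors. Counts per gene show mRNA abundance, not the splicing of Xbp1, the cutting of ATF6, phosphorylation or protein.

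Chaperone promoters are known for the ER stress element, CCAAT followed after 9 bases by CCACG, which NF-Y and ATF6 bind together. RefSeq windows (GRCm38.p6) from 250 bases before to 50 bases after the start were found for 29 of the 33 genes, and the element was searched on both strands. It occurred in 9 of the 29 genes (31%), against 39 of all 32851 windows (0.119%). Because the element is known from such promoters, this higher share is a description and not a test. The windows of 7 of 13 chaperones held it, as did those of Syvn1 and Derl3, and 0 of the 7 of the ATF4 arm. The matches are shown because they are what these promoters share in sequence. Each is written 5′ to 3′ in the direction that reads CCAAT first, with 5 bases on either side, and capitals mark the fixed letters.
Hspa5: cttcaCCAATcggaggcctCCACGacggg
Hsp90b1, farther from the start: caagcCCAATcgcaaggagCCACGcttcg
Hsp90b1, nearer the start: actcaCCAATcgtgcctcaCCACGcactc
Calr: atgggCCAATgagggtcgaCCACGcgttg
Canx: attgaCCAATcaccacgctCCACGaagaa
Pdia6: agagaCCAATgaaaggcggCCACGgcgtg
Dnajc3: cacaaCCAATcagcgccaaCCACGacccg
Creld2: gtggaCCAATtgaggctcgCCACGagaag
Syvn1: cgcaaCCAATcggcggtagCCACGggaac
Derl3: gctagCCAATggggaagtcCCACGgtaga
In Hspa5, which encodes the Hsp70 chaperone BiP, the element lay at chr2:34772025-34772043, 65 to 47 bases before the start of this plus-strand gene. In Calr it lay at chr8:84847075-84847093, on the reverse strand, 162 to 144 bases before the start.

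Hsp90b1, the ER member of the Hsp90 family (GRP94), had the element in both directions, which none of the other 28 windows had. Its upstream sequence (GRCm38.p6, chr10:86705510-86705694, minus strand) is printed in the direction of the gene, with capitals on the fixed letters of both elements. The first reads forward, and the second is on the other strand and appears as CGTGG, 9 bases and ATTGG.
Hsp90b1 upstream: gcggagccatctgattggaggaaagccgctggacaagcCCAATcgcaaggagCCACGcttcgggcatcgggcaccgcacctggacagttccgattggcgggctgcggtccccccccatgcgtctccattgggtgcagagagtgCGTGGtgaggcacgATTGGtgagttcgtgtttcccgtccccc
The second form of the ER stress element, ATTGG followed after 1 base by CCACG, was in the windows of Herpud1 and Dnajb11, 2 of 29 genes, against 12 of all windows (0.0365%).
Herpud1: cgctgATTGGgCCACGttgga
Dnajb11: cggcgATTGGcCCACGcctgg
The UPR element TGACGTGG, whose last 5 letters are CCACG on the other strand and can overlap either form, was in 0 of the 29 windows and in 0.676% of all. The ATF4 element TGATGNAAT was in 0 of the 29, the ATF4 arm included, and in 0.965% of all. No match says only that these letters were not in these windows.

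Library totals ran from 61086684 to 75052745 estimated counts. At 3.76 counts per fragment, itself an estimate from steps in the low values, they stood for about 16.2 to 20 M fragments. In siNC, Piezo1 itself had 180, 285 and 189 CPM, against 111, 109 and 113 CPM in siPiezo1, 51% of the siNC mean. Set against siNC 1 and 3 alone, siPiezo1 was at 60.3%. The log2 fold change of Piezo1 (siPiezo1 against siNC) was -0.97 ± 0.18 (SE), and -0.73 ± 0.06 without siNC 2. Over all 6 libraries its adjusted p was 0.744 in edgeR, 0.00245 without siNC 2 and 0.000982 in DESeq2. The library siNC 2 stood apart: 13 of 14 neutrophil markers were highest there. The summed level of the 14 was 4312 CPM in siNC 2, against 784 and 841 CPM in siNC 1 and 3 and 821 to 949 CPM in siPiezo1. The markers were not uniform. Elane was at 46.2 CPM in siNC 2, against 1.38 and 1.17 CPM in siNC 1 and 3. Ly6g was at most 0.371 CPM in any library, and Retnlg was at 0 in siNC 2. All 10 macrophage markers were above the filter, with a summed level of 28181 CPM in siNC 2 and 34553 to 37348 CPM in the other 5 libraries. Most of that sum was Lyz2. Of the 10 markers, 7 were lowest in siNC 2 and 1, Cd14, was highest there. C1qa was at 13.9 CPM in siNC 2, against 95.8 and 102 CPM in siNC 1 and 3 and 27.2 to 45.5 CPM in siPiezo1. Csf1r was at 2290 CPM in siNC 2, against 4447 and 4547 CPM in siNC 1 and 3. Single markers differed: Mrc1 in siPiezo1 was at 37.3% of the siNC mean (DESeq2 adjusted p = 1.57e-07; edgeR 0.338), and without siNC 2 Adgre1 and Fcgr1 were lower in siPiezo1 (edgeR adjusted p = 0.0385 and 0.028). The part of these markers in the results was not tested. Of 8 plasma cell markers, which are of interest because these cells carry a large ER, Mzb1 and Pou2af1 were listed at 0 in every library, Tnfrsf17 was at most 0.0419 CPM and Jchain at most 0.701 CPM. Igkc was highest in siNC 2 (3.96 CPM) and Ighm in siNC 1 (4.36 CPM). The list's summed level of 176 to 289 CPM was mostly Sdc1, at 129, 64.7 and 135 CPM in siNC and 195, 166 and 185 CPM in siPiezo1 (edgeR adjusted p = 0.978, and 0.0358 without siNC 2), and Xbp1, which is also one of the 33 genes. The 4 T cell markers were at 0 in every library. In bulk samples fewer cells of a type and less RNA per cell cannot be told apart.

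Levels were compared between genes as CPM per kilobase of annotated exon (mean of the 6 libraries). All annotated exons of a gene were merged, so the length can exceed that of the expressed mRNA. The ranges between libraries do not include this uncertainty. The chaperones led. Calr, the lectin chaperone calreticulin, was at 331 CPM per kilobase (lowest to highest library, 303 to 401). P4hb, a protein disulphide isomerase, followed at 244 (212 to 330). Its range met that of Calr, so the order of these 2 is not fixed by these libraries. Pdia3 was at 185 (170 to 208) and Hsp90b1 at 180 (161 to 221) CPM per kilobase, again with ranges that overlapped. Canx at 124 (118 to 138) and Hspa5 at 118 (98.3 to 130) formed the next overlapping step, below every library of Pdia3 and Hsp90b1. Atf4, whose product is the transcription factor of the PERK branch, was the highest gene of its arm, at 70.0 CPM per kilobase (54.3 to 91.5). The other genes of that arm were at 26.8 (Ddit3) down to 1.09 CPM per kilobase (Chac1). Among the sensors Xbp1 was at 26.5, Atf6 at 12.6, Ern1 at 12.2 and Eif2ak3 at 5.44 CPM per kilobase. The ranges of Atf6 (10.8 to 14.2) and Ern1 (11.1 to 13.6) overlapped, and that of Eif2ak3 (4.90 to 5.80) lay below both. Derl3, a derlin, stood at 0 to 0.314 CPM per library, 0 to 21 estimated counts, against 153 to 168 CPM for its relative Derl1.

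**Figure D1:**
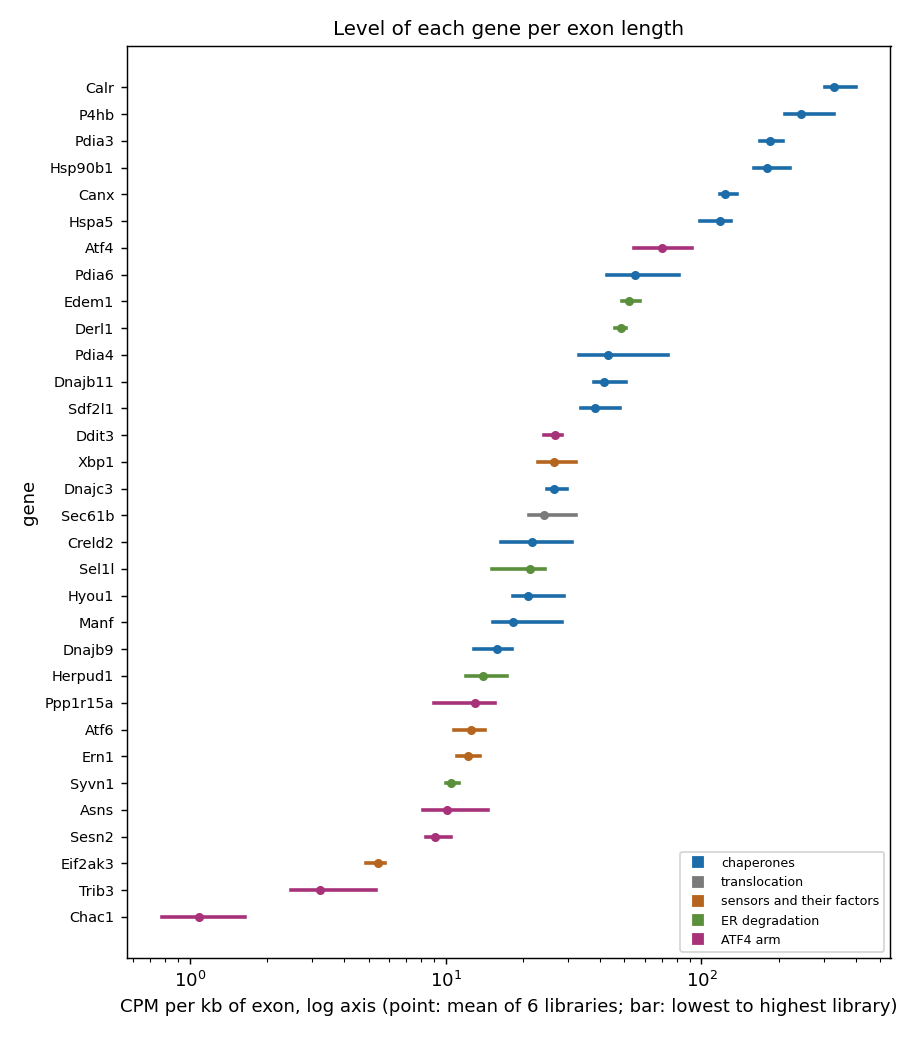
Level of each of the 32 tested genes in CPM per kilobase of exon on a log axis, coloured by role, with a point for the mean of 6 libraries and a bar from the lowest to the highest library. Calr is at the top with 331 and Chac1 at the bottom with 1.09 CPM per kilobase.

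Between siPiezo1 and siNC, 0 of the 32 tested genes passed an adjusted p of 0.05 in the quasi-likelihood test of edgeR, Benjamini-Hochberg adjusted over all 15959 genes, where 0.00627% of all genes did (1 gene, 1600014C10Rik, which is not among them and was named after its values were seen). DESeq2 called 0 of the 32, against 0.551% of all genes. Without siNC 2, edgeR called 0 of the 32, against 1.12% of all. The smallest adjusted p of these genes over 15 alternative fits was 0.192, for Atf6 without siNC 2. At an unadjusted p under 0.05, edgeR gave 2 of 32 with all 6 libraries (Pdia6 and Sel1l), a share near the 4.93% of all genes. Without siNC 2 it gave 5 of 32, a share near the 14.4% of all genes. Of these 5, 4 had values below 0 (Pdia3, Pdia6, Atf6 and Sel1l), against 6.66% of all genes, and Dnajb9 was above 0.

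How large a change could have been missed is given by the intervals. The 95% interval of the fold change lay within 1.5-fold in either direction for 22 of the 32 genes with all 6 libraries and for 29 of 32 without siNC 2. Within 2-fold the counts were 29 and 31. For the chaperones without siNC 2, all 15 intervals lay within 1.5-fold. The widest intervals with all 6 libraries were those of Chac1 (fold change 0.651, interval 0.394 to 1.08) and Trib3 (0.785, 0.473 to 1.3).

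Small differences did lean one way. The median log2 fold change (siPiezo1 against siNC) was -0.14 over the 32 genes, 28 of them below 0, while over all tested genes it was -0.01 with 52.0% below 0. Without siNC 2 it was -0.05, with 17 of 32 below 0, and 0.01 over all genes. By role the medians were -0.20 for the chaperones, -0.08 for the sensors, -0.07 for ER degradation and -0.17 for the ATF4 arm. Without siNC 2 they were -0.10, -0.02, 0.01 and 0.05 in the same order, so the medians of the chaperones and the sensors were still below 0 and those of ER degradation and the ATF4 arm were above it. The library siNC 2 was the highest of the 6 for 25 of the 32 genes (78.1%), against 28.8% of all tested genes, and for 14 of the 15 chaperones. On the log2 scale its median excess over the mean of siNC 1 and 3 was 0.37 for the chaperones and 0.51 for the ATF4 arm, but -0.04 for the sensors, with 0.02 over all genes. Neutrophil markers were high in the same library, and their part in these values was not tested.

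**Figure D2:**
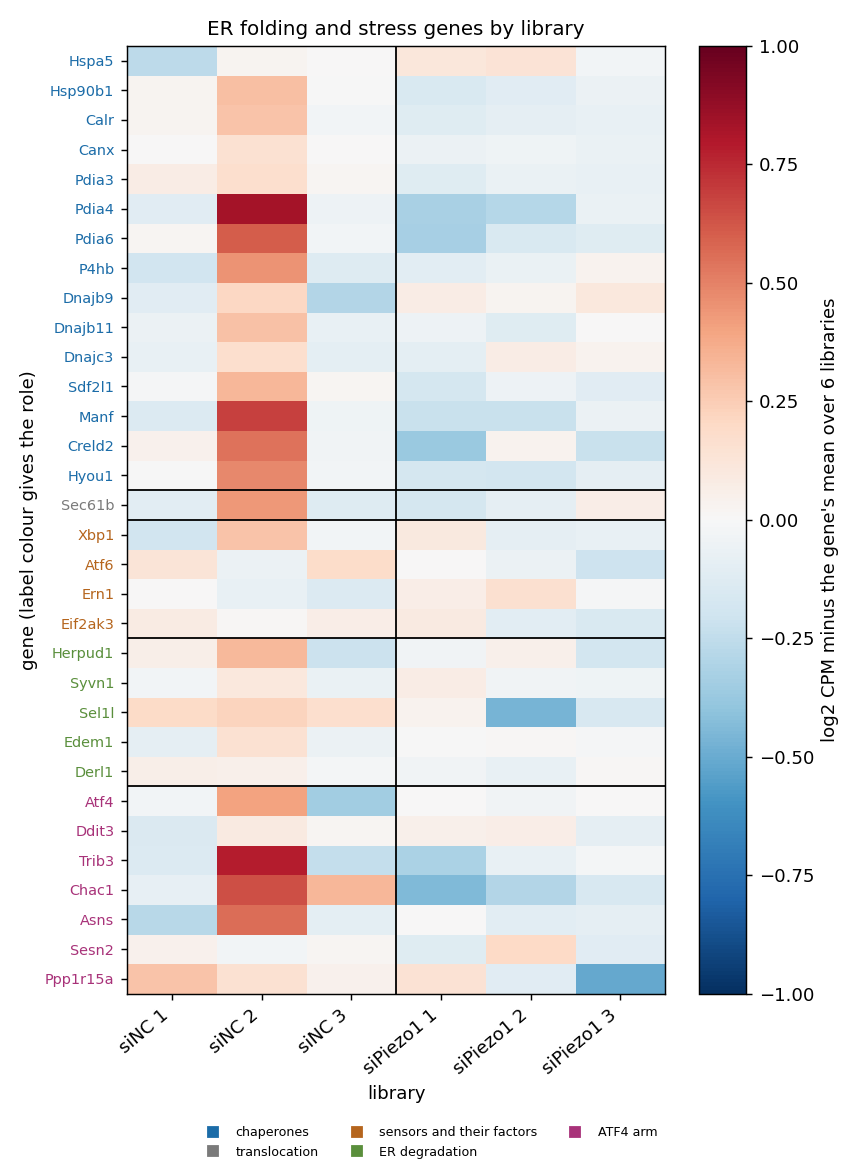
Log2 CPM of each of the 32 tested genes in each library, minus the gene's mean over the 6 libraries, with genes in rows by role and libraries in columns. The siNC 2 column is red for most chaperones and for much of the ATF4 arm, and the siPiezo1 columns are mostly pale, with the darkest blue at Sel1l in siPiezo1 2 and Ppp1r15a in siPiezo1 3.

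In 9 of the 32 genes (28.1%) every siPiezo1 library lay below every siNC library, against 5.65% of all tested genes. They were the chaperones and folding enzymes Hsp90b1, Calr, Canx, Pdia3, Pdia6, Sdf2l1 and Hyou1, the degradation gene Sel1l and, in the ATF4 arm, Chac1. In 0 of 32 did every siPiezo1 library lie above every siNC library, against 6.24% of all genes. These genes were measured in the same 6 libraries and are not separate replicates, and no gene among them passed the adjusted threshold. Set against siNC 1 and 3 alone, 10 genes were lower in every siPiezo1 library, the same 9 and Atf6, where 16.4% of all genes were. P4hb, Dnajb9 and Edem1 were then higher in every siPiezo1 library, 3 of 32, below the 16.9% of all genes.

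Of the abundant chaperones, Hsp90b1, Calr and Canx had narrow siPiezo1 groups just under the controls, while Hspa5 and P4hb overlapped with them. Hsp90b1 was at 735, 889 and 720 CPM in siNC, against 649, 665 and 692 CPM in siPiezo1. The groups did not overlap, siPiezo1 averaged 85.6% of siNC, and the log2 fold change was -0.22 ± 0.11 (SE, n = 3 per group; edgeR adjusted p = 0.978). Without siNC 2 it was -0.12 ± 0.05, edgeR adjusted p = 0.356. An antisense gene, 1810014B01Rik, covers 10.3% of the exon bases of Hsp90b1 at a mean of 14.9 CPM. Whether counting used the strand is not given in the sources used here. Gm25745, on the same strand, covers 3.3% of these bases at a mean of 32.7 CPM, and strand would not separate it. Calr was at 968, 1154 and 930 CPM in siNC and 873, 888 and 898 CPM in siPiezo1 (log2 fold change -0.20 ± 0.11, and -0.10 ± 0.05 without siNC 2). Canx, the membrane-bound lectin calnexin, was at 583, 646 and 583 CPM in siNC and 557, 563 and 554 CPM in siPiezo1 (-0.11 ± 0.08, and -0.07 ± 0.05 without siNC 2). In each of the 3 genes siNC 2 was the highest library, and the gap between the nearest libraries of the groups was a small part of the level.

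Hspa5 did not lean with them. Its values were 416, 509 and 501 CPM in siNC and 540, 550 and 491 CPM in siPiezo1. The groups overlapped, siNC 1 being the lowest library and siPiezo1 3 lying among the controls. The log2 fold change was 0.15 ± 0.11 with an interval of -0.11 to 0.40 (edgeR adjusted p = 0.978), and 0.20 ± 0.09 without siNC 2. So the gene most used as a readout of ER stress and its abundant partners stood on opposite sides of 0, each without passing the test.

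The disulphide isomerases, which form and rearrange disulphide bonds, included the folding enzymes with the largest differences. Pdia6 was at 204, 306 and 197 CPM in siNC and 160, 181 and 185 CPM in siPiezo1. The groups did not overlap, and the log2 fold change was -0.43 ± 0.18 (edgeR adjusted p = 0.978). Without siNC 2 it was -0.20 ± 0.07, edgeR adjusted p = 0.253. Pdia3, which works with calnexin and calreticulin on glycoproteins, was at 609, 651 and 585 CPM in siNC and 532, 554 and 549 CPM in siPiezo1. Its log2 fold change of -0.17 ± 0.08 moved little without siNC 2, to -0.13 ± 0.05 (edgeR adjusted p = 0.309). Pdia4 had a wide siNC group, at 92.3, 177 and 96.1 CPM, against 79.7, 81.9 and 95.3 CPM in siPiezo1. The value of siPiezo1 3 exceeded that of siNC 1, so the groups overlapped, and the log2 fold change of -0.51 ± 0.26 became -0.14 ± 0.09 without siNC 2. P4hb, the isomerase that is also a subunit of prolyl hydroxylase, lay on either side of 0. Its 606, 945 and 633 CPM in siNC against 641, 659 and 709 CPM in siPiezo1 gave -0.12 ± 0.18, and 0.11 ± 0.06 without siNC 2.

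Partners and regulators of BiP were spread around the same range. Hyou1, a nucleotide exchange factor for BiP, was at 150, 209 and 147 CPM in siNC and 133, 132 and 141 CPM in siPiezo1, with no overlap and a log2 fold change of -0.32 ± 0.15 (-0.13 ± 0.06 without siNC 2). Sdf2l1, which works with BiP and its co-chaperone Dnajb11, was at 41.7, 53.1 and 42.7 CPM in siNC and 37.3, 40.6 and 38.9 CPM in siPiezo1 (-0.24 ± 0.12, and -0.12 ± 0.08 without siNC 2). Creld2, an ER stress-inducible protein of the folding machinery, was at 30.0, 42.5 and 28.5 CPM in siNC. In siPiezo1 it was at 22.5, 29.9 and 25 CPM, of which siPiezo1 2 lay inside the siNC range (-0.38 ± 0.19, and -0.18 ± 0.13 without siNC 2). Manf, an ER-resident factor that can be secreted, was at 57.1, 101 and 61.0 CPM in siNC and 54.0, 53.9 and 60.4 CPM in siPiezo1. Its log2 fold change of -0.38 ± 0.22 became -0.08 ± 0.08 without siNC 2, which held the highest value of both genes.

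The J-domain co-chaperones, which stimulate BiP, gave values on both sides of 0. Dnajb9, which also holds IRE1 inactive through BiP, was at 37.3, 46.5 and 32.9 CPM in siNC and 42.5, 41.1 and 43.4 CPM in siPiezo1. With siNC 2 inside the comparison the groups overlapped (0.12 ± 0.14). Without it every siPiezo1 library was above both controls, at 0.27 ± 0.09 (edgeR adjusted p = 0.223). Dnajb11 had a log2 fold change of -0.12 ± 0.12, and 0.01 ± 0.06 without siNC 2. Dnajb11 and Dnajc3 had siPiezo1 means of 91.9% and 99.9% of the siNC means, and 101% and 107% of the mean of siNC 1 and 3. Sec61b, a subunit of the channel through which proteins enter the ER, was at 28.4, 41.2 and 28 CPM in siNC and 27.0, 28.7 and 32.0 CPM in siPiezo1 (-0.15 ± 0.17, and 0.05 ± 0.11 without siNC 2).

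**Figure D3:**
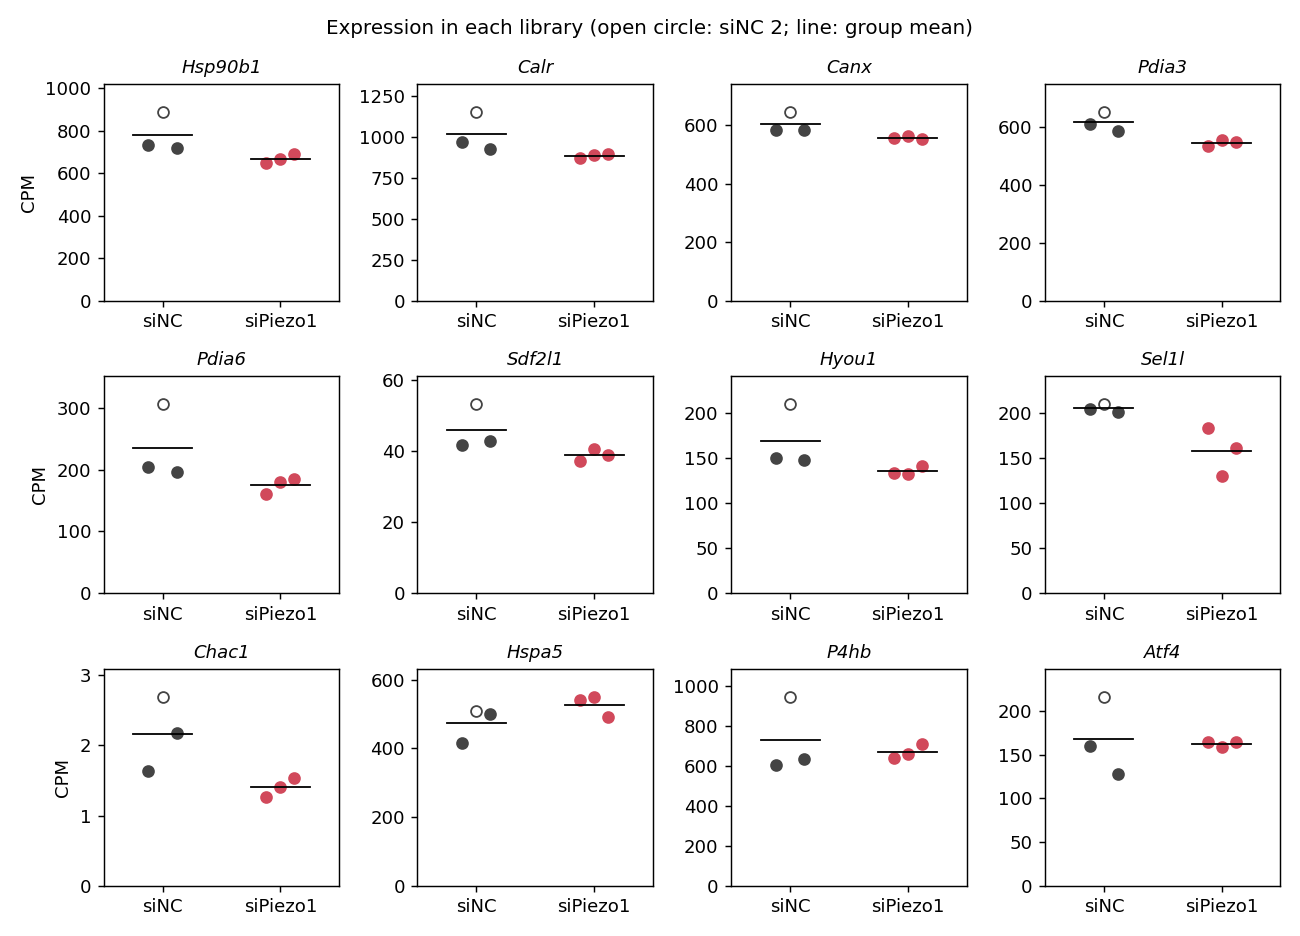
CPM in each library of 12 genes, with a linear axis from 0 in each panel, closed points for single libraries, an open circle for siNC 2 and a line for the group mean. The siPiezo1 points of Hsp90b1, Calr, Canx, Pdia3, Pdia6, Sdf2l1, Hyou1, Sel1l and Chac1 lie below all siNC points, and those of Hspa5, P4hb and Atf4 overlap with them.

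The sensors showed no common side. Xbp1 was at 74.7, 104 and 84.0 CPM in siNC and 91.5, 80.2 and 81.0 CPM in siPiezo1, and the groups overlapped (-0.06 ± 0.14). Ern1 was at 99.6, 94.3 and 90.7 CPM in siNC and 104, 111 and 98.4 CPM in siPiezo1. Of the siPiezo1 libraries, siPiezo1 3 lay inside the siNC range, and the log2 fold change was 0.14 ± 0.08 with all libraries and 0.13 ± 0.08 without siNC 2. Eif2ak3 was at 34.6, 33 and 34.3 CPM in siNC and 34.9, 30.5 and 29.5 CPM in siPiezo1 (-0.10 ± 0.10). All 4 intervals of this group lay within 1.5-fold, with and without siNC 2.

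Atf6, the sensor whose cut form binds the ER stress element, had the smallest adjusted p of the 32 genes over the alternative fits. Its values were 126, 111 and 131 CPM in siNC and 116, 111 and 100 CPM in siPiezo1. Here siNC 2 was the lowest control rather than the highest, and it met the siPiezo1 group. The log2 fold change was -0.17 ± 0.10 with all libraries, and -0.24 ± 0.08 with an interval of -0.41 to -0.06 without siNC 2 (edgeR adjusted p = 0.192).

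In ER degradation, in which misfolded proteins are sent back to the cytosol for the proteasome, Sel1l stood out from its partners. Sel1l, the adaptor of the ubiquitin ligase HRD1, was at 205, 210 and 202 CPM in siNC and 184, 130 and 161 CPM in siPiezo1. The controls lay close together, siPiezo1 2 was the lowest library, and the groups did not overlap. The log2 fold change of -0.38 ± 0.13 (interval -0.69 to -0.07; edgeR adjusted p = 0.978) was -0.37 ± 0.14 without siNC 2 (edgeR adjusted p = 0.331). It rested more on siPiezo1 2: without that library it was -0.25, and over all single omissions it ran from -0.50 to -0.25. DESeq2 gave it an adjusted p of 0.491. The value of siNC 2 was 0.04 above the mean of siNC 1 and 3 on the log2 scale for Sel1l, while for the other 8 genes without overlap it was 0.13 (Pdia3) to 0.61 (Pdia6) above it.

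The partners of Sel1l lay close to 1-fold. Syvn1, the ligase HRD1 itself, was at 50.1, 55.0 and 48.7 CPM in siNC and 53.9, 49.9 and 49.5 CPM in siPiezo1, 99.7% of the siNC mean. Edem1, which takes terminally misfolded glycoproteins out of the folding cycle, was at 314, 371 and 321 CPM in siNC and 334, 337 and 332 CPM in siPiezo1. The siPiezo1 libraries of Edem1 lay between siNC 2 and the other controls, so the group mean was 99.8% of siNC but 105% of siNC 1 and 3. Herpud1, a scaffold of the HRD1 complex, was at 33.9, 40.6 and 28 CPM in siNC and 31.8, 33.6 and 28.6 CPM in siPiezo1 (-0.13 ± 0.15). Derl1, a channel component for the way back to the cytosol, was at 168, 167 and 159 CPM in siNC and 157, 153 and 162 CPM in siPiezo1 (-0.07 ± 0.07). A near-identical copy of Derl1, Gm35638 (95.4% over 652 aligned bases), held 3.65 CPM, so a share of its reads is uncertain.

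In the ATF4 arm, the transcripts of the 2 central factors showed no difference beyond their spread. Atf4 was at 160, 216 and 128 CPM in siNC and 164, 159 and 164 CPM in siPiezo1. The siPiezo1 libraries were nearly equal and lay within the wide siNC range, and the log2 fold change was -0.05 ± 0.18 with all libraries and 0.17 ± 0.09 without siNC 2. Ddit3, which encodes CHOP, a transcription factor tied to cell death under lasting ER stress, was at 41.6, 48.9 and 46.6 CPM in siNC. In siPiezo1 it was at 47.6, 48.1 and 43.2 CPM, and the groups overlapped (0.02 ± 0.10, interval -0.21 to 0.25). Mars, on the opposite strand, covers 3.97% of the exon bases of Ddit3 at a mean of 57.4 CPM.

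The other genes of this arm had lower counts than Atf4 and Ddit3, and the intervals of Chac1, Trib3 and Asns were wider. Chac1, an enzyme that degrades glutathione, was at 1.63, 2.69 and 2.17 CPM in siNC and 1.27, 1.41 and 1.54 CPM in siPiezo1. The groups did not overlap, but each library held only an estimated 24.2 to 54 fragments of it. The log2 fold change was -0.62 ± 0.30 (edgeR adjusted p = 0.978), and -0.44 ± 0.35 without siNC 2. Trib3, a pseudokinase induced by ATF4 and CHOP, was at 5.99, 11.4 and 5.61 CPM in siNC and 5.30, 6.27 and 6.50 CPM in siPiezo1 (-0.35 ± 0.31). Asns, asparagine synthetase, was at 22.4, 40.1 and 25.4 CPM in siNC and 27.3, 25.3 and 25.5 CPM in siPiezo1 (-0.17 ± 0.22). Both genes overlapped between the groups and had values above 0 without siNC 2, at 0.05 ± 0.19 and 0.12 ± 0.11. Ppp1r15a encodes GADD34, which brings a phosphatase to eIF2alpha and so reverses the action of PERK. It was at 45.9, 41.9 and 38.9 CPM in siNC and 41.7, 34.8 and 26.4 CPM in siPiezo1, with siPiezo1 1 inside the siNC range (-0.30 ± 0.17, and -0.31 ± 0.20 without siNC 2). Sesn2, a stress-inducible sestrin, had a siPiezo1 mean of 98.9% of the siNC mean.

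**Figure D4:**
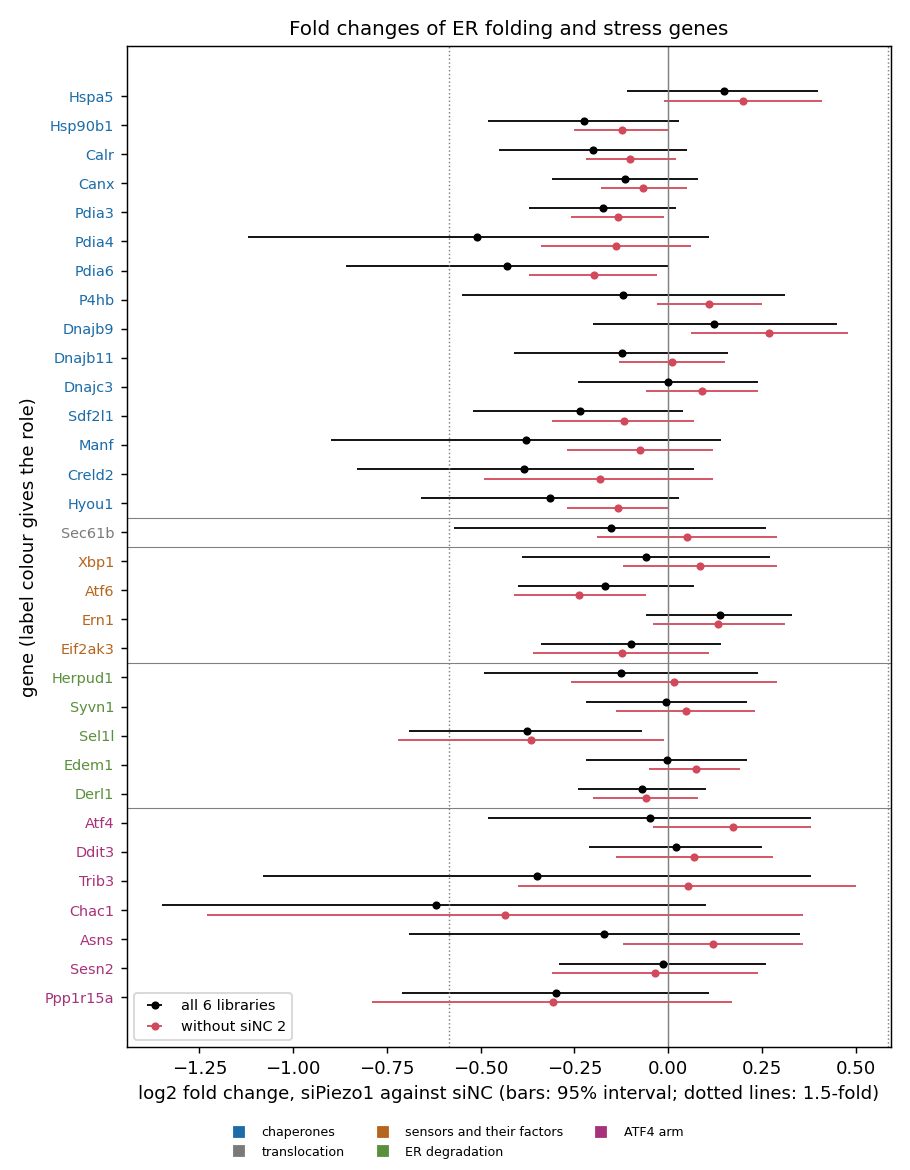
Log2 fold change of each tested gene in siPiezo1 against siNC with its 95% interval, in black for all 6 libraries and in red without siNC 2, with dotted lines at 1.5-fold. Without siNC 2 the intervals of 29 of 32 genes lie inside the dotted lines, and the points of 11 genes (P4hb, Dnajb11, Dnajc3, Sec61b, Xbp1, Herpud1, Syvn1, Edem1, Atf4, Trib3 and Asns) are on the other side of 0.

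The genes whose promoters held the ER stress element can be set beside the rest. The genes were chosen by symbol, though the element is known from chaperone promoters. Of the 8 tested genes with the element, Calr, Canx, Hsp90b1 and Pdia6 were lower in every siPiezo1 library, and Hspa5, Dnajc3, Creld2 and Syvn1 were not. The 20 with a window but without this element included Herpud1 and Dnajb11, which held its second form. Of these 20, 4 were lower in every siPiezo1 library (5.65% of all genes, above). The median log2 fold changes were -0.16 with the element and -0.12 without it, and -0.08 and 0.03 when siNC 2 was left out. Of the 8 with the element, 7 had log2 fold changes below 0 and only that of Hspa5 was above it. When siNC 2 was left out, 5 were below and 3 above. Of the 20 others, 17 were below 0, and 8 when siNC 2 was left out. Hspa5, with an element 65 bases before the start, was at 111% of the siNC mean, and Hsp90b1, with an element on either strand, at 85.6%.

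Other genes of the pathway were taken from 5 lists that hold none of the 33 genes. Of 93 listed genes 92 were tested, and 0 passed the adjusted threshold with all 6 libraries in edgeR, against 0.00627% of all genes. DESeq2 called 0, against 0.551% of all. At an unadjusted p under 0.05 edgeR gave 3 of the 92, against 4.93% of all. Without siNC 2, 1 of the 92 passed the adjusted threshold in edgeR, against 1.12% of all. It was Ero1l (now Ero1a), the oxidase that passes oxidising power to the disulphide isomerases. Ero1l was at 149, 362 and 144 CPM in siNC and 215, 212 and 245 CPM in siPiezo1. The siPiezo1 libraries lay above siNC 1 and 3 and below siNC 2, so the log2 fold change was 0.04 ± 0.36 with all libraries and 0.61 ± 0.08 without siNC 2 (edgeR adjusted p = 0.0134). Whether siNC 2 is kept decides this call.

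In the list of 20 genes of ER folding and disulphide formation the median log2 fold change was -0.05, with 13 below 0, and 0.05 without siNC 2, with 8 below 0. Txndc5, a disulphide isomerase, was at 96.8, 115 and 94.0 CPM in siNC and 85.5, 84.6 and 87.3 CPM in siPiezo1 (-0.25 ± 0.10; -0.15 ± 0.06 without siNC 2). Fkbp11, a prolyl isomerase, was low, at 0.708, 1.44 and 0.628 CPM in siNC and 0.28, 0.173 and 0.359 CPM in siPiezo1 (-1.77 ± 0.58; -1.30 ± 0.73 without siNC 2). In both genes every siPiezo1 library was below every siNC library. Ero1lb, another ER oxidase, had every siPiezo1 library above every siNC library, at 58.3, 39.7 and 61.8 CPM in siNC and 71.7, 66.8 and 70.8 CPM in siPiezo1 (0.39 ± 0.17; 0.21 ± 0.07 without siNC 2). The adjusted p of each of the 3 was 0.978 in edgeR.

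The 16 genes of translocation and signal cleavage had a median of -0.08, with 13 below 0 and 14 highest in siNC 2. Without siNC 2 it was 0.03, with 5 below 0. Spcs1, a signal peptidase subunit, was at 73.7, 80.7 and 77.3 CPM in siNC and 49.1, 79.7 and 48.3 CPM in siPiezo1 (-0.39 ± 0.20). Here siPiezo1 2 stood with the controls. Srpr, a subunit of the receptor that docks ribosomes on the ER, was at 159, 162 and 154 CPM in siNC and 145, 147 and 148 CPM in siPiezo1, without overlap (-0.11 ± 0.07). Sec61a1, the pore of the channel, was at 166, 214 and 173 CPM in siNC and 170, 164 and 167 CPM in siPiezo1 (-0.14 ± 0.11, and -0.02 ± 0.06 without siNC 2).

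The 15 other genes of ER degradation had a median of 0.01, with 9 above 0. Erlec1, a lectin that recognises trimmed glycans, was at 30.4, 34.3 and 32.3 CPM in siNC and 34.1, 39.8 and 42.3 CPM in siPiezo1 (0.26 ± 0.11). Edem2, which starts the trimming, was at 83.8, 88.6 and 90.1 CPM in siNC and 94.8, 97.5 and 99.8 CPM in siPiezo1, without overlap (0.15 ± 0.07). Os9, a lectin of the HRD1 complex, was at 259, 229 and 252 CPM in siNC and 266, 279 and 276 CPM in siPiezo1, again without overlap (0.15 ± 0.08). These 3, named for the smallest p in their list, had values above 0, where that of Sel1l was below 0, and none of the 4 passed the adjusted threshold.

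The 12 genes of sensing and processing had a median of -0.06, with 8 below 0. Mbtps2, the site-2 protease that makes the last cut in ATF6, was at 53.4, 54.5 and 52.5 CPM in siNC and 49.5, 47.1 and 41.8 CPM in siPiezo1. The groups did not overlap (-0.21 ± 0.09; -0.20 ± 0.09 without siNC 2, edgeR adjusted p = 0.391). Creb3l2, an ER-anchored transcription factor cut like ATF6, was at 18.5, 20.8 and 17.8 CPM in siNC and 17.1, 13.7 and 17.8 CPM in siPiezo1 (-0.23 ± 0.14, and -0.16 ± 0.14 without siNC 2). Eif2s1, which encodes eIF2alpha, was at 99.2, 137 and 93.7 CPM in siNC and 90.6, 91.8 and 98.5 CPM in siPiezo1 (-0.23 ± 0.15, and -0.04 ± 0.07 without siNC 2). Both overlapped between the groups.

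The 29 tested ATF4 targets and amino acid response genes depended most on siNC 2. Their median was -0.05 with all libraries, with 11 above 0, and 0.19 without siNC 2, with 22 above 0. In edgeR an unadjusted p under 0.05 was found for 1 of the 29 with all 6 libraries, against 4.93% of all tested genes. Without siNC 2 it was found for 10, each with a value above 0, against 14.4% of all. Of all 15959 genes, 1228 had such a p and a value above 0 in that fit. The adjusted threshold was passed by 0 of the 29 in either fit. Slc6a9, a glycine transporter, was at 13.8, 18.8 and 14.4 CPM in siNC and 32.8, 20.8 and 31.7 CPM in siPiezo1. Its groups did not overlap (0.86 ± 0.21, edgeR adjusted p = 0.857; 1.01 ± 0.20 without siNC 2, edgeR adjusted p = 0.0789; DESeq2 adjusted p = 0.0612). Gpt2, an alanine aminotransferase, was at 12, 11.9 and 10.6 CPM in siNC and 8.99, 10 and 9.48 CPM in siPiezo1 (-0.28 ± 0.14). Atf3, a transcription factor downstream of ATF4, was at 140, 116 and 154 CPM in siNC and 165, 160 and 147 CPM in siPiezo1 (0.20 ± 0.12). Slc7a11, the cystine transporter, named after its values were seen, was a gene whose value rested on siNC 2. It was at 412, 1277 and 414 CPM in siNC and 673, 538 and 688 CPM in siPiezo1, and its log2 fold change was -0.15 ± 0.45 with all libraries and 0.61 ± 0.11 without siNC 2 (edgeR adjusted p = 0.058). The neutrophil markers that were high in siNC 2 moved with these genes in that library, and their part was not tested.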

How the data were processed

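Poly(A) RNA of 3 siNC and 3 siPiezo1 libraries was sequenced as paired ends with dUTP strand marking, per the labels' protocols. The submitters' processing notes name cutadapt 1.9, HISAT2 2.0.4, StringTie 1.3.4d, DESeq2, edgeR and the build GRCm39. What each did, which annotation was used and whether counting was stranded is not stated there. The values the authors deposited are estimated counts per gene in whole numbers, and they were tested as deposited. That about 3.76 counts are worth 1 fragment was estimated here from steps in the low values. Of the values from 3 to 30, 50.5% to 53.3% per library lay on these steps, against 25% if spread evenly. Samples were grouped by title, and 0 columns were left unmapped.

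Genes were filtered with filterByExpr, scaled by TMM and tested in edgeR 4.0.16 (R 4.3.3) with glmQLFit, robust, and glmQLFTest on group alone, with Benjamini-Hochberg adjustment over all 15959 genes. Members were read from that fit. Fits without a library kept the same genes. Intervals are 95%, from the fitted SE. DESeq2 1.42.0 and limma 3.58.1 were alternatives, with other scalings, filters, a replicate block and each library left out. The test was checked on a single draw of simulated data for each fit. Genes were drawn independently and no library was set apart, unlike siNC 2 in the real data. These shares may therefore not hold for the real libraries. With all 6 libraries it called 7.46% of 1.5-fold, 28.4% of 2-fold and 74.2% of 4-fold changes, and 3.95% of its calls were false. Without siNC 2 it called 8.96%, 44.8% and 84.8% of them, and 2.13% of its calls were false. A gene that was not called may thus still differ. CPM use TMM-scaled library totals. Exon lengths, overlaps and copies (blastn 2.17.0, at least 90% over 300 bases) come from GENCODE M21 (GRCm38), and promoter windows from RefSeq (GRCm38.p6).

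The members and lists were chosen with earlier results of these data known. The rule named, with values in every library, Hspa5, Hsp90b1, Xbp1, Atf4, Ddit3, the 5 smallest p of each role and, from each other list, genes past the threshold with or without siNC 2 or else the 3 smallest p. The values of Calr, Canx, Pdia4, P4hb, Dnajb9, Sdf2l1, Manf, Slc7a11, Txndc5, Fkbp11, Ero1lb and single cell type markers were added after they were seen. Lists of markers for B cells, dendritic cells, mast cells or basophils, fibroblasts and osteoclasts were also read: summed levels were at most 3.45, 0.982, 2.01, 13.3 and 85.7 CPM per library.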

Additional observations from a re-analysis of the deposited data

How the results depend on the processing

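None of the 32 genes passed the threshold in any of the 480 pairs of gene and alternative. Genes without overlap (9 lower, 0 higher) were as many under DESeq2's size factors and library totals, and without single libraries the higher ones ran from 0 to 3. Over all genes 1 was called, against 0 with library totals or the replicate block, 88 in DESeq2, 17 in limma-voom with library weights and 0 to 178 without single libraries. Other pathway genes called ran from 0 to 1 without single libraries, the median of the ATF4 arm from -0.26 to 0.05 and that of the sensors from -0.15 to -0.02.

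Signs turned in 14 of 288 pairs that kept all libraries. With library weights the log2 fold changes were 0.07 for P4hb, Dnajc3 and Asns, 0.06 for Xbp1 and Edem1, 0.14 for Atf4, 0.04 for Syvn1, 0.0084 for Sec61b and 0.00099 for Herpud1. Dnajc3 was at 8.8e-05 with no filter on low counts, and Dnajc3 and Edem1 at 0.002 and 0.00096 in limma-voom. Under the replicate block Dnajc3 and Edem1 were at 0.0028 and 0.00099, and no call among the 32 genes changed. Without single libraries 13 genes turned: P4hb ran from -0.24 to 0.11, Dnajb11 from -0.19 to 0.0099, Dnajc3 from -0.05 to 0.09, Sec61b from -0.25 to 0.05, Xbp1 from -0.16 to 0.08, Herpud1 from -0.25 to 0.01, Syvn1 from -0.05 to 0.05, Edem1 from -0.05 to 0.07, Atf4 from -0.21 to 0.17, Ddit3 from -0.04 to 0.07, Trib3 from -0.53 to 0.05, Asns from -0.33 to 0.12 and Sesn2 from -0.13 to 0.04. The cause was not tested.

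The replicate numbers were not used as pairs in the main fit. Correlations of same-numbered deviations were 0.0296, -0.062 and -0.0861, and no sample correlated best with its own number. With few libraries and siNC 2 apart, these values cannot show whether same-numbered samples were prepared together. With 3 libraries a group and 1 control library apart, the intervals had a median log2 half-width of 0.30 (0.20 without siNC 2). These intervals are not adjusted for the number of genes, and larger differences among the 32 genes also failed the adjusted threshold. With all 6 libraries Pdia6 at -0.43 and Chac1 at -0.62 on the log2 scale each had an edgeR adjusted p of 0.978. Of simulated 2-fold changes, 28.4% were called with all 6 libraries and 44.8% without siNC 2.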
